A study of Rattus norvegicus with 12 samples.

Results

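Complex I subunits were described here as the rows of the expression table whose gene symbol is Nduf followed by a, b, c, s or v and then a digit, so that the assembly factors named Ndufaf were left out. 38 of the 18469 rows met this rule. The cells were neonatal rat ventricular myocytes (NRVMs), primary heart muscle cells of Sprague-Dawley rats, whose total RNA was sequenced in 12 libraries. They fall into 4 groups of 3 biological replicates each, which share the strain and the culture medium. siNeg cells received a negative control siRNA and no phenylephrine (PE), siNeg.PE cells received the control siRNA and PE, siSlc25a26 cells received an siRNA against Slc25a26 and no PE, and siSlc25a26.PE cells received that siRNA and PE. PE, an agonist of the alpha-1 adrenergic receptor that makes cultured myocytes hypertrophic, was given for 36 h, beginning 12 h after transfection. The labels give neither the number nor the sequence of the siRNAs against Slc25a26, which encodes the mitochondrial carrier of S-adenosylmethionine.

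Complex I, NADH:ubiquinone oxidoreductase, is the entry point of electrons from NADH into the mitochondrial respiratory chain. Its matrix arm takes the electrons from NADH through a flavin and a chain of iron-sulfur clusters to ubiquinone, and its membrane arm pumps protons. The conserved core is made by subunits encoded in the nucleus, all in the matrix arm, and by subunits encoded in mitochondrial DNA, which form the pumps; around them sit accessory subunits needed for assembly and stability. In heart muscle, where ATP comes mainly from oxidative phosphorylation, complex I is abundant. The mitochondrially encoded subunits and Ndufb1 were not analysed here.

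Each library held between 24770972 and 28709049 estimated counts. Slc25a26 was at 29.3 to 33.2 CPM (counts scaled to a common library total) in siNeg and at 14.7 to 15.8 CPM in siSlc25a26, so that without PE it fell by 1.08 on the log2 scale (adjusted p = 1.08e-05, edgeR quasi-likelihood test). With PE it rose to 86.2 to 113 CPM in siNeg.PE (log2 fold change 1.69, adjusted p = 1.79e-05), and the libraries labelled siSlc25a26.PE held 98.8 to 106 CPM, a log2 fold change of -0.01 (adjusted p = 0.969) from siNeg.PE. The level of the targeted mRNA therefore does not separate these last groups. The interferon response markers given with the cell markers further on did separate them, in the direction seen without PE. The natriuretic peptide genes Nppa and Nppb, which PE induces in hypertrophic myocytes, were higher in siNeg.PE than in siNeg by 4.63 and 5.37 on the log2 scale (adjusted p = 2.22e-06 and 2.05e-05). They were also higher in siSlc25a26 than in siNeg, by 1.14 and 1.97 (adjusted p = 0.000562 and 8.73e-05). Under PE the libraries labelled siSlc25a26.PE were above siNeg.PE by 1.02 and 1.91 (adjusted p = 0.000259 and 0.000493). siNeg.PE replicate 3 had the lowest Nppb (311 CPM, against 656 and 698 CPM in its group) and also the lowest summed level of complex I subunits in its group. All 10 cardiomyocyte markers were detected, with a summed level of 22614.5 to 25187.3 CPM in siNeg, but 10 fibroblast markers summed to 21550 to 23706.3 CPM in the same libraries, so markers of both cell types were abundant.

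Of the 38 members, 36 had enough counts to be tested in every comparison. The other two were Ndufa4l2, a paralog of Ndufa4 known as a hypoxia-induced gene, which lay between 0 and 0.398 CPM, and the row named Ndufs6, which held 1 count in siNeg replicate 2 and 0 in the other 11 libraries. Per transcript length, in FPKM (fragments scaled by transcript length and library total), the tested members spanned a 21.6-fold range of mean level, from Ndufa10l1 at 33.9 FPKM to Ndufb4 at 730 FPKM, with a median of 277 FPKM. In siNeg the order of FPKM levels began with Ndufb4 (853 FPKM), Ndufa4 (773 FPKM), Ndufb9 (678 FPKM) and Ndufa11 (595 FPKM), and ended with Ndufs4 and Ndufa10l1 (36.9 FPKM). Of the 35 pairs of neighbours in that order, 30 had overlapping siNeg libraries, so most neighbours were not separated beyond their spread. Ndufs1, which encodes the largest subunit of the complex, was among the 3 lowest per length in siNeg. The estimated counts of 13 members were not whole in at least 1 library, as happens where reads that match several sequences are divided among them. Ndufb4, Ndufa1, Ndufa5, Ndufa10, Ndufa10l1, Ndufb11, Ndufs1, Ndufs5 and Ndufs7 were so in all 12 libraries, and their levels are less certain.

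**Figure D1:**
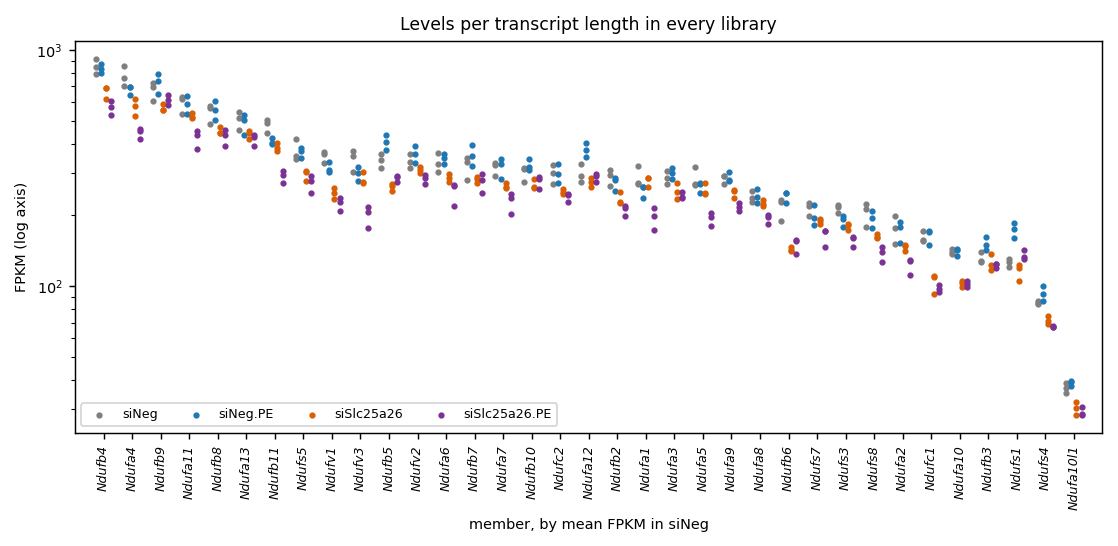
FPKM of 35 of the 36 tested members (log axis) in each of the 12 libraries, one point per library, coloured by group and ordered by the siNeg mean. The members fall from 853 FPKM for Ndufb4 to 36.9 FPKM for Ndufa10l1 in siNeg, and the points of both siSlc25a26 groups lie mostly below those of the siNeg groups.

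siSlc25a26 cells were first compared with siNeg cells, both without PE. In siSlc25a26 all 36 tested members had lower estimates than in siNeg, and 33 of them fell past the threshold of an adjusted p of 0.05, where 21.7% of the 13829 genes tested fell. None rose, where 23.3% of all genes did. On log2(FPKM + 1) 61.1% of all called genes rose, against 51.8% on the count scale. There 23 members fell, beside 2398 of the 13829 genes. The median log2 fold change of the members was -0.32, beside 0.01 over all genes tested, and the single estimates ran from -0.69 to -0.12 with standard errors of 0.05 to 0.09. In 31 members all 3 siSlc25a26 libraries were below all 3 siNeg libraries, which held for 25.3% of all genes in that direction. Ndufc1 and Ndufb6 fell by more than 1.5-fold, 2 of 36, beside 7.20% of all genes.

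Summed over the 38 members, the level was 7106 to 8050 CPM in siNeg and 6043 to 6216 CPM in siSlc25a26. The siSlc25a26 libraries lay closer together (SD 89.1 CPM) than the siNeg libraries (SD 479 CPM), and the groups did not overlap. Ndufc1, a small accessory subunit of the membrane arm, was at 78.7, 85.7 and 78.2 CPM in siNeg and at 45.2, 53.4 and 54.2 CPM in siSlc25a26, a log2 fold change of -0.69 ± 0.08 (SE; adjusted p = 0.000163). Its estimate was the lowest of all tested members. Ndufb6, another accessory subunit of the membrane arm, was at 122, 125 and 102 CPM in siNeg and at 74.4, 76.3 and 74.5 CPM in siSlc25a26, a log2 fold change of -0.66 ± 0.08 (adjusted p = 0.000213). For both genes every siSlc25a26 library was below the lowest siNeg library.

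Core subunits encoded in the nucleus were among the members that fell. Ndufv1, which binds NADH and carries the flavin, went from 505, 493 and 457 CPM in siNeg to 332, 345 and 316 CPM in siSlc25a26, a log2 fold change of -0.58 ± 0.06 (adjusted p = 7.60e-05). Its groups were widely separated, and its estimate was the lowest of the core subunits. Ndufs7 (-0.40) and Ndufs8 (-0.39), iron-sulfur subunits near the ubiquinone site, followed it on the count scale. In mean FPKM, Ndufs7 went from 214 in siNeg to 188 in siSlc25a26, and Ndufs8 from 204 to 162. The place of Ndufs7 in this order therefore depended on the scale. Ndufs3, another core subunit of the matrix arm, had a log2 fold change of -0.31. Ndufv2 and Ndufs1, the iron-sulfur proteins next to Ndufv1 at the head of the arm, had the estimates nearest 0 in the core, at -0.19 (adjusted p = 0.0311) and -0.17 (adjusted p = 0.0421).

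By arm, 14 of 15 tested matrix arm subunits and 17 of 19 tested membrane arm subunits fell, with medians of -0.29 and -0.32. The 3 members that did not pass were Ndufa1 (-0.12, adjusted p = 0.224), Ndufb3 (-0.13, adjusted p = 0.169) and Ndufa12 (-0.19, adjusted p = 0.0625). Ndufa1, a small membrane subunit at the junction of the arms, had siSlc25a26 libraries of 86.3, 93.7 and 94.8 CPM within reach of its siNeg libraries of 92.3, 109 and 92.4 CPM. Ndufa8 (-0.15) passed narrowly, with an adjusted p of 0.0498. Across the 36 members Spearman's rho between log2 fold change and FPKM was 0.00 and between log2 fold change and the transcript length implied by the deposited values -0.12, both as descriptions over genes that share the same libraries. When each of the 6 libraries was left out in turn, all 33 members kept their direction and 21 kept their call every time, with 22 to 34 called in a fit. In those fits 2293 to 3327 of 13979 to 14005 genes fell. The share of all genes that kept their call every time was not counted.

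**Figure D2:**
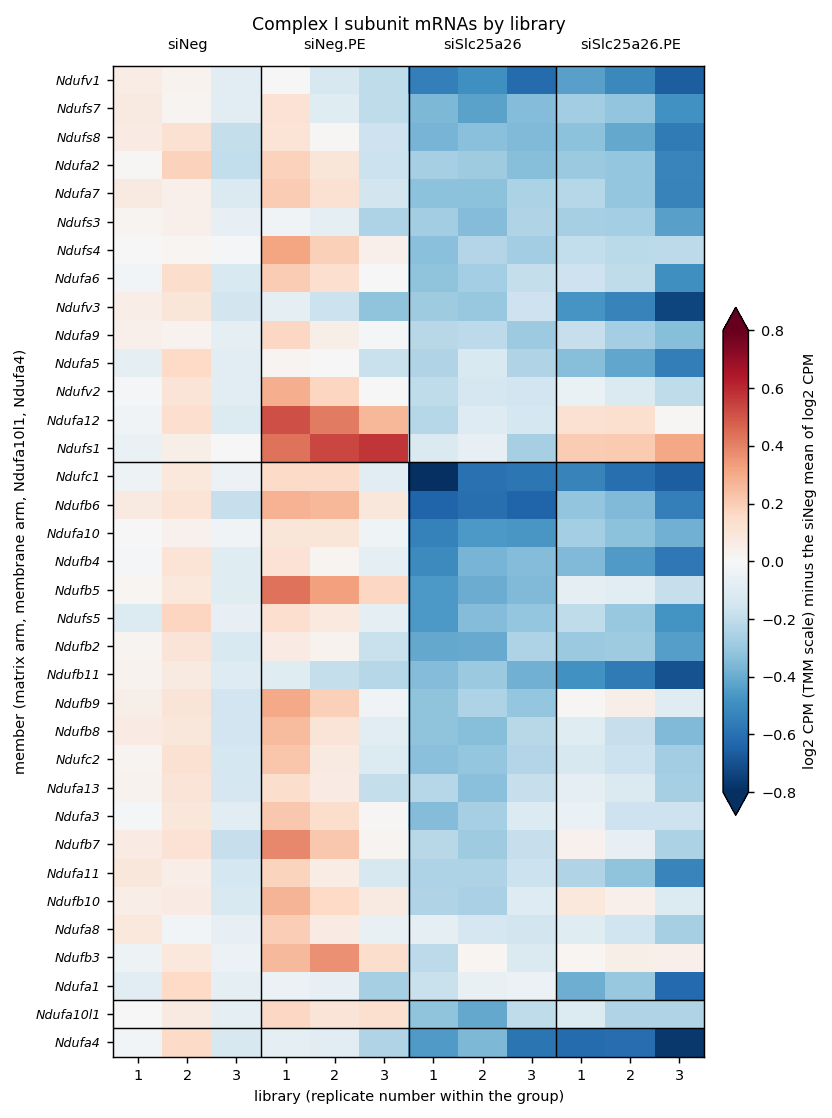
Log2 CPM of 35 of the 36 tested members in each of the 12 libraries minus the siNeg mean (blue lower, red higher; colours end at 0.8), with the matrix arm, the membrane arm, Ndufa10l1 and Ndufa4 in blocks from top to bottom. The siSlc25a26 columns are blue in nearly every row, Ndufs1 and Ndufa12 are red in siNeg.PE, and replicate 3 of siNeg, siNeg.PE and siSlc25a26.PE is lower than the rest of its group in most rows.

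The same comparison was made under PE, between the libraries labelled siSlc25a26.PE and siNeg.PE, which share no library with the comparison without PE. Again all 36 members had lower estimates, and 32 fell past the threshold, where 20.1% of the 13671 genes tested fell. None rose, and the share of all genes that rose was also 20.1%. On log2(FPKM + 1) 38.3% of all called genes rose, against 50% on the count scale. The median log2 fold change was -0.34, beside 0.00 over all genes, with estimates from -0.68 to -0.17 and standard errors of 0.06 to 0.11. Groups did not overlap in 32 members, beside 25.1% of all genes in that direction, and 2 of 36 fell by more than 1.5-fold, beside 8.10% of all genes. These were again Ndufc1 (-0.68 ± 0.08) and Ndufb6 (-0.62 ± 0.08).

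The summed level of the 38 members was 7389 to 8569 CPM in siNeg.PE and 5914 to 6640 CPM in those labelled siSlc25a26.PE. Both groups had their lowest value in replicate 3, and the groups did not overlap. Of the core, Ndufv1 (-0.44), Ndufs8 (-0.43), Ndufs7 (-0.31), Ndufv2 (-0.29) and Ndufs1 (-0.28) fell, and Ndufs3 had a log2 fold change of -0.22 with an adjusted p of 0.0519. Ndufs3 was at 200, 193 and 172 CPM in siNeg.PE and at 170, 169 and 151 CPM in those labelled siSlc25a26.PE, so that its groups lay close without overlapping. Besides Ndufs3, the members that did not pass were Ndufa13 (-0.17, adjusted p = 0.182), Ndufb10 (-0.17, adjusted p = 0.105) and Ndufb9 (-0.18, adjusted p = 0.143), all membrane arm subunits. Ndufa13 is also known as GRIM-19, a protein first described in cell death, and it had passed without PE (-0.28, adjusted p = 0.0141). The matrix arm had 14 of 15 members called and a median of -0.40, and the membrane arm 16 of 19 and -0.32. Left out one at a time, the 6 libraries gave 22 to 36 called members. In those fits 1870 to 2567 of 13782 to 13813 genes fell. All 32 members kept their direction, and 21 kept their call every time, a share not counted over all genes.

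**Figure D3:**
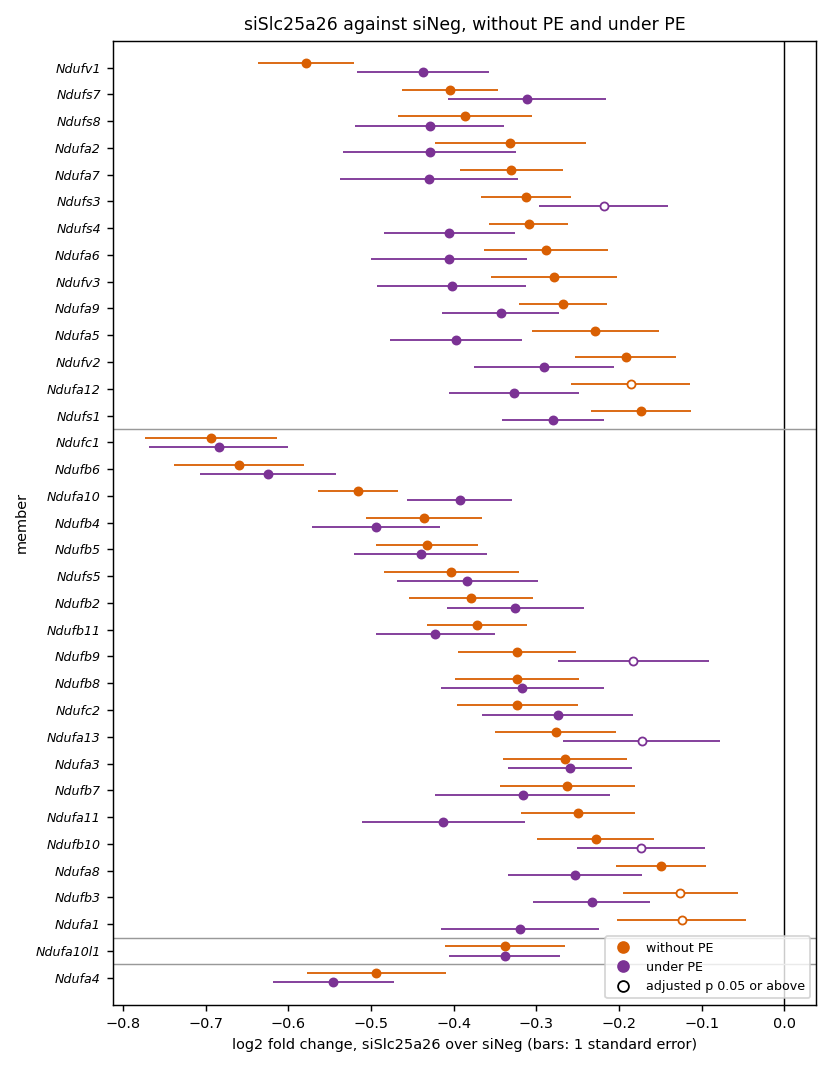
Log2 fold change of siSlc25a26 over siNeg without PE (orange) and under PE (purple) for 35 of the 36 tested members, with bars of 1 standard error; open circles have an adjusted p of 0.05 or above. All points lie below 0, from -0.69 for Ndufc1 to -0.12 for Ndufa1 without PE and from -0.68 for Ndufc1 to -0.17 for Ndufa13 under PE.

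Across the 36 members the log2 fold changes without PE and under PE had a Pearson's r of 0.74 and a Spearman's rho of 0.64, given as a description over genes measured in the same libraries, and no member differed by more than 0.20 between them. 29 of 36 members fell in both comparisons, beside 12.6% of the 13508 genes tested in both. Ndufa10 was at 259, 265 and 254 CPM in siNeg and at 178, 188 and 188 CPM in siSlc25a26, a log2 fold change of -0.52 without PE, and its log2 fold change under PE was -0.39. Ndufa10l1, an Ndufa10-like gene whose counts, as those of Ndufa10, were not whole in any library, fell by 0.34 on the log2 scale in both.

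Ndufa4 carries a complex I name but is now assigned to complex IV, cytochrome c oxidase. It was at 524, 591 and 488 CPM in siNeg, 508, 503 and 452 CPM in siNeg.PE, 389, 415 and 356 CPM in siSlc25a26, and 347, 349 and 312 CPM in those labelled siSlc25a26.PE. Both siRNA groups lay wholly below their controls, with log2 fold changes of -0.49 ± 0.08 without PE (adjusted p = 0.00152) and -0.55 ± 0.07 under PE (adjusted p = 0.000502), among the 5 lowest of the members without PE and the 3 lowest under PE. Ndufab1, the mitochondrial acyl carrier protein, is a complex I subunit that the symbol rule does not reach. It fell too, by 0.26 on the log2 scale without PE (adjusted p = 0.0132) and by 0.36 under PE (adjusted p = 0.00419).

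Other respiratory chain genes gave the complex I values a setting. All 4 complex II subunits fell without PE (median -0.35, from Sdhc at -0.52 to Sdhb at -0.21) and 3 of 4 under PE (median -0.41). Of 37 nuclear subunits of complexes III to V, 33 fell without PE (median -0.46) and 35 under PE (median -0.41), and none rose. Their extremes were Cox7a1, the heart and muscle form of a complex IV subunit, at -1.22 and -1.56, and Cox7c, another complex IV subunit, at -0.10 and -0.12. Of the 18 complex I assembly factors tested, 6 fell and 1 rose without PE (median -0.17), from Tmem70 (-0.70) to Ndufaf4 (0.29), and 9 fell and none rose under PE (median -0.25), from Nubpl (-0.78), which delivers iron-sulfur clusters to complex I, to Ndufaf6 (0.17). Of 22 other mitochondrial proteins, 13 fell and 1 rose without PE (median -0.25) and 8 fell and none rose under PE (median -0.15), with Slc25a4, the heart ADP/ATP carrier, lowest at -0.54 and -0.63. Of 12 regulators of respiratory genes, 4 rose and 2 fell without PE and 3 rose and 1 fell under PE. Their highest and lowest were Ppargc1a (0.32) and Ppargc1b (-0.27) without PE, and Pprc1 (0.47) and Ppargc1a (-0.50) under PE. Over all genes tested, 23.3% rose and 21.7% fell without PE, and 20.1% rose and 20.1% fell under PE. No test compared these lists with the complex I members or with all genes.

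Markers of cell types moved in the same comparisons, in which 21.7% of all genes fell and 23.3% rose without PE. Under PE 20.1% of all genes fell and 20.1% rose. Without PE 8 of 10 fibroblast markers fell and 1 rose (median -0.74), with summed levels of 21550 to 23706.3 CPM in siNeg and 12515.4 to 14043.5 CPM in siSlc25a26; under PE 9 fell and 1 rose (median -0.53), from 11721.9 to 12192.8 CPM down to 8758 to 9531 CPM. All 6 smooth muscle markers fell without PE (539 to 606 CPM in siSlc25a26, 806 to 903 CPM in siNeg), and 4 fell and 2 rose under PE (563 to 628 CPM in siNeg.PE, 642 to 661 CPM with the siRNA against Slc25a26). Of 7 macrophage markers tested, 5 fell without PE and 2 of 6 under PE, with summed levels of 107 to 129 CPM in siNeg, 55.9 to 64.9 CPM in siSlc25a26, 58.4 to 66.0 CPM in siNeg.PE and 38.5 to 44.5 CPM in those labelled siSlc25a26.PE, with Cd163 at or under 3 counts in every library. Endothelial markers were lower still, at most 33.7 CPM in all groups, with 1 of 7 lower without PE and 1 of 6 higher under PE. Of the 10 cardiomyocyte markers, 5 fell without PE (median -0.14) and 3 fell and 1 rose under PE (median 0.03); their summed level was 22614.5 to 25187.3 CPM in siNeg and 19988.6 to 22994.2 CPM in siSlc25a26, and 27031.9 to 27865.1 CPM in siNeg.PE and 26606.7 to 27940.2 CPM in those labelled siSlc25a26.PE. All 10 interferon response markers rose in both comparisons, with medians of 6.64 and 6.49, from summed levels of 192 to 220 CPM to 7710 to 8418 CPM without PE and from 136 to 151 CPM to 4556 to 5048 CPM under PE. The part of these changes in the complex I result was not tested, and in bulk RNA fewer cells of a type and less RNA per cell cannot be told apart.

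siNeg.PE cells were then compared with siNeg cells. Each PE comparison shares its libraries with the siRNA comparisons above, so their values are given side by side only. 4 of 36 members rose, beside 25.2% of the 13719 genes tested, and 1 fell, beside 24.3% of all genes. These counts depended on the fit. With the replicate number added as a block, 17 of 36 members passed, where 31.7% of all genes rose and 30.0% fell. The number was not taken as a pairing, for the reasons given with the processing. The median log2 fold change was 0.05 and the estimates ran from -0.20 to 0.50. Ndufs1, the largest iron-sulfur subunit, was at 306, 327 and 318 CPM in siNeg and at 428, 458 and 470 CPM in siNeg.PE, a log2 fold change of 0.50 ± 0.06 (adjusted p = 0.000340). Ndufa12, an accessory subunit of the matrix arm, went from 135, 152 and 128 CPM to 197, 184 and 166 CPM (0.39 ± 0.08, adjusted p = 0.00547). Their siNeg.PE libraries lay wholly above the siNeg libraries. Ndufb5 (0.30, adjusted p = 0.0121) and Ndufb3 (0.24, adjusted p = 0.0195), accessory subunits of the membrane arm, also rose.

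The member that fell in control cells was Ndufb11, a membrane arm subunit encoded on the X chromosome (-0.18, adjusted p = 0.0402). Its groups overlapped, and its call was lost with DESeq2's size factors (adjusted p = 0.0531) and without siNeg replicate 1 or 2 or siNeg.PE replicate 2 or 3 (adjusted p of 0.102 to 0.157). Ndufv3, an accessory subunit beside Ndufv1, had the lowest estimate (-0.20, adjusted p = 0.0741), and Ndufa4 the third lowest (-0.15, adjusted p = 0.157). Of the other core subunits, none passed: the values were 0.14 for Ndufv2, -0.03 for Ndufs8, -0.07 for Ndufs7, -0.12 for Ndufv1 and -0.13 for Ndufs3. Ndufa13 was at 0.00 and Ndufab1 at 0.12. In the same comparison 7 of 18 assembly factors rose and 1 fell, with Ndufaf4 highest (1.16), 9 of 37 subunits of complexes III to V rose and 3 fell, from Cox8b (-0.68) to Cox7a1 (1.44), and 12 of 22 other mitochondrial proteins rose and 1 fell, up to Hspd1 (0.65), a chaperone. Among cell markers 5 of 10 for cardiomyocytes rose and 1 fell, while 5 of 10 for fibroblasts fell and 2 rose. The part of these markers in the complex I values was not tested. Beside all these lists, 25.2% of all genes rose and 24.3% fell.

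In the siSlc25a26 background, between the libraries labelled siSlc25a26.PE and siSlc25a26, 7 of 36 members rose, beside 26.4% of the 13776 genes tested, and 5 fell, beside 26.0%. Ndufs1 was again highest, at 292, 303 and 264 CPM without PE and 365, 367 and 392 CPM with it, a log2 fold change of 0.40 ± 0.06 (adjusted p = 0.000692). Ndufb5 (0.30), Ndufb9 (0.29), Ndufa12 (0.25), Ndufb6 (0.24), Ndufb10 (0.22) and Ndufa10 (0.17) also rose. Those that fell were Ndufa1, from 86.3, 93.7 and 94.8 CPM to 74.5, 79.1 and 63.6 CPM (-0.33 ± 0.08, adjusted p = 0.00749), Ndufv3 (-0.32), Ndufb11 (-0.23), Ndufa5 (-0.23) and Ndufa4 (-0.19). The other core subunits did not pass, at 0.05 for Ndufv2, 0.03 for Ndufs7 and Ndufv1, -0.03 for Ndufs3 and -0.07 for Ndufs8, and neither did Ndufa13 (0.11) and Ndufab1 (0.03). This split depended on the scale. On the deposited FPKM values, where the median of all genes in this comparison was -0.13 or -0.17 with a pseudocount of 1 or 0.1, only Ndufs1 rose (0.22 or 0.23), beside 14.6% of all genes, and 15 of 36 members fell, beside 41.0% of all genes. Ndufa10 lost its call there and was at 0.00. Ndufs7 (-0.21) and Ndufab1 (-0.16), which had not passed on the count scale, passed as lower there with either pseudocount. The member median was -0.13 with either pseudocount, against 0.05 on the count scale.

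**Figure D4:**
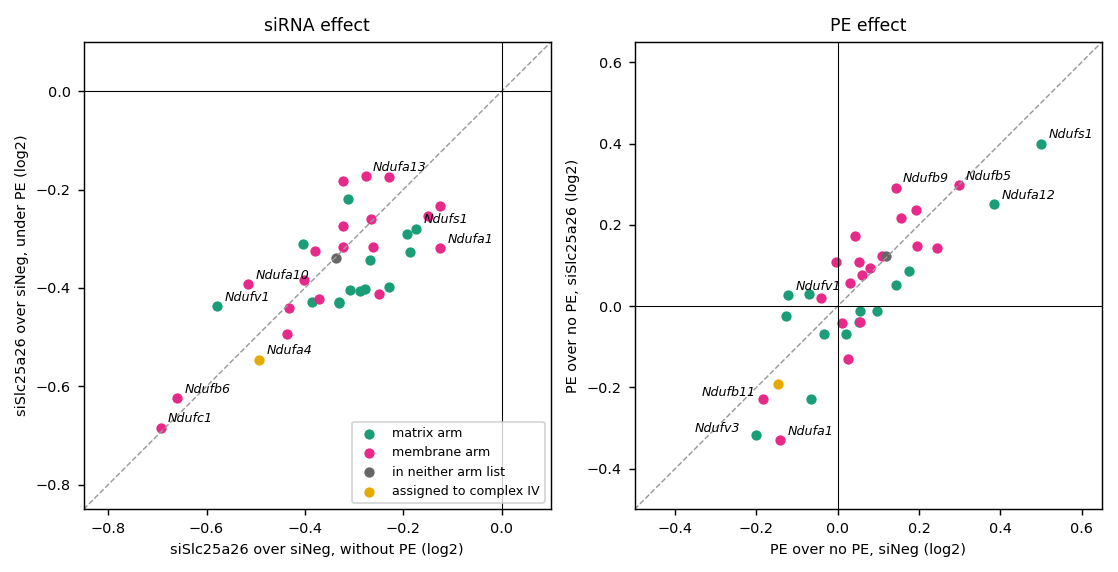
Left, the log2 fold change of siSlc25a26 over siNeg without PE (horizontal) and under PE (vertical); right, that of PE in siNeg (horizontal) and in siSlc25a26 (vertical), one point for each of 35 tested members coloured by arm, with the line of equality dashed. On the left all 35 points are below 0 on both axes with Ndufc1 and Ndufb6 lowest, and on the right the points surround 0 with Ndufs1 highest on both axes.

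Whether the PE effect differed between the siRNAs was tested as the difference between the PE effects, over all 12 libraries. No member passed in edgeR (adjusted p of 0.327 or above), 0 of 36 had an unadjusted p under 0.05, and DESeq2 and limma-voom also called 0 members. Of all 14097 genes, 5.48% passed upward and 5.73% downward. The estimated differences ran from -0.21 for Ndufa1 to 0.13 for Ndufv1 with standard errors of 0.07 to 0.15. Ndufa1, whose difference was larger than its standard error of 0.13, had an adjusted p of 0.328. Differences somewhat larger than these standard errors could therefore also go uncalled. On the FPKM scale 12 members had an unadjusted p under 0.05 and 0 an adjusted one. 4 members passed in the same direction in both PE comparisons (Ndufs1, Ndufa12 and Ndufb5 higher, beside 17.8% of all genes tested in both, and Ndufb11 lower, beside 17.1%), and the log2 fold changes of the 36 members had a Pearson's r of 0.84 and a Spearman's rho of 0.83 between them. These comparisons share no library.

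The member named Ndufs6, an accessory subunit that carries zinc in the matrix arm, had a nearly empty row. Its gene ID in the table, 29478, is that of the pseudogene Ndufs6-ps1 in RefSeq's GRCr8 annotation, where the protein-coding Ndufs6 has the ID 679739; the table lists that ID as LOC679739, which the symbol rule does not reach. LOC679739 held 2050.5, 2068 and 2907.47 estimated counts in siNeg, 1855, 405.85 and 1520.5 in siNeg.PE, 1714, 1897 and 1858.5 in siSlc25a26, and 1533, 2637.1 and 170.89 in those labelled siSlc25a26.PE. It varied widely within groups. Another row, LOC100912599, held the same value in 8 of the 12 libraries and the opposite deviation in the other 4 (903.53 in siNeg replicate 3, 3237.15 in siNeg.PE replicate 2, 200.9 and 2506.11 in the libraries labelled siSlc25a26.PE replicates 2 and 3). The sums of both rows were even, from 2677 to 4136 counts.

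Summed, the rows gave 149 ± 8.58 CPM in siNeg, 137 ± 13.8 CPM in siNeg.PE, 124 ± 6.36 CPM in siSlc25a26 and 112 ± 8.11 CPM in those labelled siSlc25a26.PE (SD, n = 3). The sum, tested as 1 row after its values had been seen, fell by 0.29 on the log2 scale without PE (adjusted p = 0.00544) and by 0.30 under PE (adjusted p = 0.0247), values within the range of the 36 tested members. LOC679739 alone gave -0.51 (adjusted p = 0.00830) and 0.17 (adjusted p = 0.883). RefSeq's table holds no entry for the ID of LOC100912599, so its identity is not given here.

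**Figure D5:**
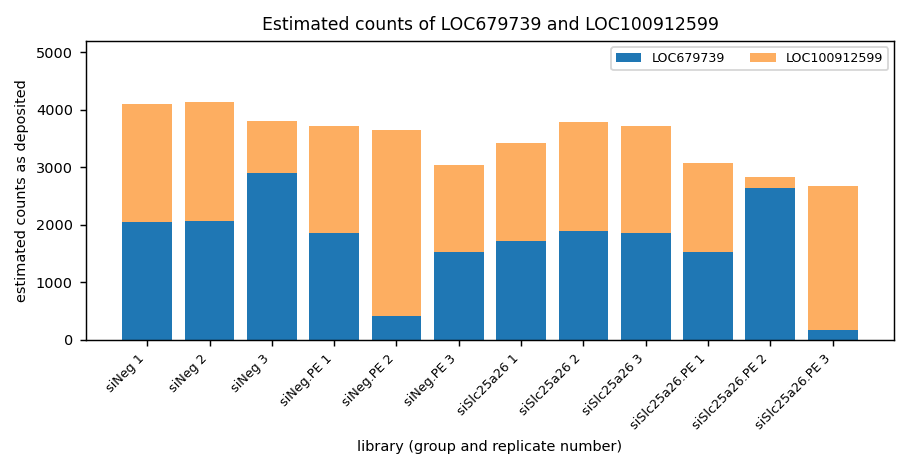
Estimated counts of LOC679739 (blue) and LOC100912599 (orange), stacked, in each of the 12 libraries. In 8 libraries the bars are divided evenly, in 4 they are divided unevenly, and the stacked heights stay between 2677 and 4136 counts.

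The promoters of a few members are shown because the members moved together in both siRNA comparisons. RefSeq's GRCr8 table held the promoter of 32 of the 36 tested members. The 250 bases before each annotated start were searched on both strands for 4 motifs of factors known to act on respiratory chain genes. These were CGCATGCG for NRF1, CCGGAAG for GABP and other ETS factors, AAGGTCA for the estrogen-related receptors and AAGATGG for YY1. No member held 2 different motifs of these 4. CCGGAAG or its reverse complement was in 7 of 32 members (21.9%: Ndufa1, Ndufa13, Ndufa2, Ndufa6, Ndufb7, Ndufs1 and Ndufs8) and in 7.74% of 27457 rat promoters of the same length. The median share of G and C in these windows was 56.2% in the members and 52% in all promoters. Its part in the motif counts was not tested. CGCATGCG was in 1 member (Ndufa11) and in 1.63% of promoters, AAGGTCA in 2 members (Ndufb2 and Ndufs5) and in 3.77%, and AAGATGG in 0 members and 4.63%. Only these exact letters were searched, so sites of the same factors with other letters were not counted. The windows below are those of the 2 members with the lowest estimates without PE, Ndufc1 (chr2:137601736-137601985, minus strand) and Ndufb6 (chr5:60206153-60206402, minus strand), which held none of these motifs, and of the core subunits Ndufs1 (chr9:72073606-72073855, minus strand) and Ndufs8 (chr1:210573699-210573948, minus strand), in which the match to CCGGAAG is in capitals on the strand shown as CTTCCGG, 199 and 12 bases before the start.
Ndufc1: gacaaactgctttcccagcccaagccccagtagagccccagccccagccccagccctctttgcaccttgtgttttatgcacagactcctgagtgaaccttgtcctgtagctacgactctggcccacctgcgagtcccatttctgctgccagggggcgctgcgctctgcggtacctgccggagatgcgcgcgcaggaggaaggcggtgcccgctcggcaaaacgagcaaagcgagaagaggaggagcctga
Ndufb6: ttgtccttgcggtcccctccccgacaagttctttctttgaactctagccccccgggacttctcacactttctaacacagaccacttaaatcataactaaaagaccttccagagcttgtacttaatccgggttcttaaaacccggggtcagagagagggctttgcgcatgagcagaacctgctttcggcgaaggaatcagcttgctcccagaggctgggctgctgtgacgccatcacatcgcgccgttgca
Ndufs1: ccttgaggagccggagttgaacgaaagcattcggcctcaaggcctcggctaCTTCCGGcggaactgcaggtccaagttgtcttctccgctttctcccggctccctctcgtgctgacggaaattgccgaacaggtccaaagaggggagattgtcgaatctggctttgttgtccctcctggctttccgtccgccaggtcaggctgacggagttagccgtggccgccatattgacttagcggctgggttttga
Ndufs8: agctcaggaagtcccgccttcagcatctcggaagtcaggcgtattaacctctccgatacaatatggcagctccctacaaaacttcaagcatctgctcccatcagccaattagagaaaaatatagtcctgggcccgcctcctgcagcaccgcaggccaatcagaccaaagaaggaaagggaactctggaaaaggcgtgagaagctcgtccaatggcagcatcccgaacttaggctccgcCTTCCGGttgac
The match in Ndufs8 lies next to the start and that in Ndufs1 far from it. A match in such a window is a description of its letters, and members with and without a match had lower estimates in both siRNA comparisons.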

How the data were processed

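RNA of the 12 NRVM libraries was sequenced by BGI. The authors deposited, per gene, estimated counts (20.8 to 21.9% of values per library not whole) and FPKM; per the labels, HISAT, Bowtie2 and the Rnor_6.0 build were used, with versions and annotation not given in the sources used here. Counts were rounded, genes with low counts removed (filterByExpr), and each comparison fitted on its own 6 libraries by edgeR 4.0.16 (TMM, quasi-likelihood F-test, R 4.3.3), and the difference between PE effects on all 12; a gene passed at a Benjamini-Hochberg adjusted p under 0.05 over all genes tested. CPM values share 1 TMM scale over the 12 libraries. Standard errors are the size of the log2 fold change divided by the square root of F. Depth was 24770972 to 28709049 counts per library, and replicates differed by more than sampling noise (lowest chi-square per gene between replicates 5.40).

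The members and gene lists were chosen with earlier results of these data known. Named were Slc25a26, Nppa and Nppb, the nuclear core subunits, Ndufa4, Ndufa4l2, Ndufa13 and Ndufab1, the 3 highest and 3 lowest members of each comparison, the extremes of the mitochondrial lists and members left out by the filter; LOC679739, LOC100912599 and any further member were chosen after their values were seen. The values of 1 member are not reported here, though the counts and medians include it. IDs were matched to RefSeq's GRCr8 table (16962 of 18469 IDs, all 38 members, 37 with the same symbol). The fits were tested on simulated counts. Alternatives were DESeq2 1.42.0 and its size factors, limma 3.58.1 (voom, or log2 of FPKM with a pseudocount of 1 or 0.1), no filter, a stricter one (10 or more counts in each library), a replicate block, 1 fit over all 12 libraries, and leaving out each library.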

Additional observations from a re-analysis of the deposited data

How the results depend on the processing

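In both siRNA comparisons the member median stayed below 0 and no member rose in any fit. Without PE 23 to 34 members fell under another tool, scaling, filter or set of libraries, and under PE 32 to 36. Beside them, 2381 to 3126 of 13091 to 17896 genes fell without PE, and 2526 to 3395 of 12969 to 17763 under PE. The 23 came from the FPKM scales, where 2398 and 2381 of 13829 genes fell and 3774 and 3748 rose. Leaving out 1 library gave 22 to 34 without PE and 22 to 36 under PE. In those fits 2293 to 3327 of 13979 to 14005 genes fell without PE, and 1870 to 2567 of 13782 to 13813 under PE. The 1.5-fold rule left 2 in each, beside 7.20% of all genes without PE and 8.10% under PE. In both PE comparisons it left 0 higher and 0 lower, and the share of all genes under this rule was not counted there. The PE counts were less stable, and the causes were not tested. In siNeg, DESeq2's size factors left 0 members lower, beside 3216 of 13719 genes. Both log2(FPKM + 1) and log2(FPKM + 0.1) gave 2 lower, beside 3822 and 3830 of 13719 genes. Leaving out 1 library gave 3 to 5 higher and 0 to 2 lower (0 without siNeg replicate 1 or 2 or siNeg.PE replicate 2 or 3, and 2 without siNeg replicate 3). In those fits 2582 to 3484 of all genes rose and 2366 to 3142 fell, of 13851 to 13885 tested. In siSlc25a26, both FPKM scalings gave 1 higher and 15 lower (14.6% and 41.0% of all genes). Leaving out 1 library gave 4 to 11 higher and 3 to 6 lower (4 higher without siSlc25a26 replicate 1, 4 higher and 3 lower without siSlc25a26.PE replicate 2, 11 higher without siSlc25a26.PE replicate 3, and 3 lower without siSlc25a26 replicate 2). In those fits 2917 to 3823 of all genes rose and 2876 to 3740 fell, of 13904 to 13963 tested. Without siSlc25a26.PE replicate 3, 3398 of 13930 genes rose. The difference between PE effects gave 0 members in every fit.

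Same-numbered libraries did not deviate together in every pair (correlations of their deviations from the group means of -0.09 to 0.22), so the number is not taken as a pairing; 5 of 6 libraries correlated best with their own number between siNeg and siNeg.PE, 2 between siNeg and siSlc25a26, 4 between siNeg.PE and siSlc25a26.PE, and 0 between siSlc25a26 and siSlc25a26.PE. A fit with the replicate block called 11 members higher and 6 lower for PE in siNeg (31.7% and 30.0% of all genes), against 4 and 1 without it, 31 lower for siSlc25a26 without PE (2910 of 13829 genes), 36 lower under PE (3300 of 13671 genes), and 5 higher and 5 lower for PE in siSlc25a26 (22.9% and 23.0%).

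Signs were reversed in the PE comparisons for several members near 0, for Ndufab1 and for Ndufa10, which had passed as higher in siSlc25a26 (0.17), and under PE for the row LOC679739. Ndufa13 for PE in siNeg was at 0.00299 with DESeq2, 0.00301 with its size factors and 0.00932 with all 12 libraries, and from -0.0710 to 0.0808 with 1 library left out; Ndufs8 there ran from -0.125 to 0.0312. For PE in siSlc25a26, log2(FPKM + 1) and log2(FPKM + 0.1) gave -0.0740 and -0.0742 for Ndufa13, -0.160 and -0.161 for Ndufab1, -0.211 and -0.213 for Ndufs7, -0.149 and -0.150 for Ndufv1, -0.127 and -0.127 for Ndufv2, and -0.00390 and -0.00393 for Ndufa10. Of these, Ndufs7 (adjusted p = 0.0250 and 0.0248, limma) and Ndufab1 (0.0456 and 0.0453) passed as lower, beside 41.0% of all genes. With 1 library left out, Ndufab1 ran from -0.0197 to 0.0595, Ndufs3 from -0.0563 to 0.0247, Ndufs7 from -0.00628 to 0.0860 and Ndufv1 from -0.0211 to 0.0812. Summing LOC679739 and LOC100912599, chosen after seeing the data, turned the estimate under PE from 0.17 to -0.30. Ndufa4l2 and the row named Ndufs6 held too few counts to be tested.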
